A study of Mus musculus with 9 samples.

Results

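The genes described here are 9 regulators of how mitochondria are made and of how they fuse and divide: Ppargc1a, Ppargc1b, Nrf1, Esrra, Tfam, Mfn1, Mfn2, Opa1 and Dnm1l. They were taken by gene symbol from the 9 tables of FPKM (fragment counts scaled by transcript length and by the total of the library) made from mouse aorta. All 9 were found among 17179 symbols, all 9 were listed above 0 in every library, and all 9 passed the filter of a mean of at least 1 FPKM, as did 12997 symbols in all. The libraries came from C57BL/6J mice in 5 groups. The TPA group (2 libraries) had β-aminopropionitrile (BAPN) and TPA, which activates the AP-1 transcription factor, injected into the peritoneum at 50 ng/g/day from day 1. The T-5224 group (2 libraries) had BAPN and the AP-1 inhibitor T-5224, gavaged at 5 mg/kg/day, and the coQ10 group (1 library) had BAPN and coenzyme Q10, gavaged at 10 mg/kg/day, with either gavage beginning on day 7 or 14. The BAPN group (2 libraries) had BAPN alone, and the normal group (2 libraries) had distilled water. BAPN, which blocks the lysyl oxidases that cross-link elastin and collagen, was fed at 1 g/kg/day to all groups but the normal one to induce aortic dissection, and all mice were killed on day 28. T-5224 replicate 1 is titled 2 weeks and replicate 2 is titled 3 weeks, so replicate and title cannot be told apart in that group. The titles may stand for lengths of gavage, since it began on day 7 or 14, but the sources used here do not say so. In that case, T-5224 values with n = 2 pool 2 treatment lengths, and their gap enters the spread shared by all comparisons. The age and sex of the mice, and which mice gave each library, were not given in the sources used here, so p-values measure only the spread between these libraries. The treatment label of the coQ10 library is written BAPN+co110 and was read as coQ10, the one remaining treatment that the protocol names, so every coQ10 value rests on that reading. The protocol's 48 mice in 4 groups do not match the number of treatments, so group sizes are uncertain.

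Mitochondria are built from proteins encoded in both the nucleus and the mitochondrial DNA. The coactivators PGC-1α (Ppargc1a) and PGC-1β (Ppargc1b) dock on nuclear factors such as ERRα (Esrra) and NRF1 (Nrf1). These factors switch on respiratory chain genes and Tfam, which encodes the protein that packages mitochondrial DNA. Mitochondria also fuse and divide without pause. The mitofusins MFN1 and MFN2 join outer membranes, OPA1 joins inner membranes and holds the cristae in shape, and the GTPase DRP1 (Dnm1l) constricts and cuts the tubule. In the aortic wall these proteins act in smooth muscle, endothelium and fibroblasts, and in heart, skeletal muscle and brown fat the PGC-1 coactivators are known for driving high mitochondrial content.

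Because TPA and T-5224 act on AP-1, the promoters of the members were searched for the AP-1 motif TGANTCA, and also for the cyclic AMP response element TGACGTCA, the palindromic NRF1 motif, the ERR motif TNAAGGTCA and the ETS motif CCGGAAGT bound by GABP, on both strands. RefSeq (GRCm38.p6) gave 12 windows of 250 bases before to 50 bases after a start site, for 8 of the 9 members. There was no window for Ppargc1b, so its promoter was not searched. Matches were found in 3 windows, shown here because they are the members' only matches, and no matches overlapped each other. The windows are chr16:29579084-29579383 on the plus strand for Opa1, chr10:71237995-71238294 on the minus strand for Tfam and chr3:32529232-32529531 on the plus strand for Mfn1. They are written 5′ to 3′ in lower case, with matches in capitals.
Opa1: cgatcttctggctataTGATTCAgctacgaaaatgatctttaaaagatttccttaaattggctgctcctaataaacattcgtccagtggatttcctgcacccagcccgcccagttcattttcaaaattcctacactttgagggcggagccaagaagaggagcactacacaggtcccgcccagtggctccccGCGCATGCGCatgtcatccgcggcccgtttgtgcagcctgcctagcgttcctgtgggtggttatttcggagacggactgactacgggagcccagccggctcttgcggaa
Tfam: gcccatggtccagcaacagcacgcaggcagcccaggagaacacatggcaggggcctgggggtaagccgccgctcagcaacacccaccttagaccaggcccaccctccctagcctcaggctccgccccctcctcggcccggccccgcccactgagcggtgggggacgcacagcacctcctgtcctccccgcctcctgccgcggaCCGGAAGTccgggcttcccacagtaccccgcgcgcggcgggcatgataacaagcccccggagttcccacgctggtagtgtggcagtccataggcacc
Mfn1: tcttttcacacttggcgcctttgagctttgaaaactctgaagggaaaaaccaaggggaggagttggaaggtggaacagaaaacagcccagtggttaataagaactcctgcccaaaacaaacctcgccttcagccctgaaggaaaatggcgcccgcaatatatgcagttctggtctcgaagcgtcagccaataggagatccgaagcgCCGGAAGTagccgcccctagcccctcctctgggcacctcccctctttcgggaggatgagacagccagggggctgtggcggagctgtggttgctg
Opa1 held a match to the AP-1 letters TGANTCA, as TGATTCA with T at the free middle position, 234 bases before its start site. It held the NRF1 motif 59 bases before the start site. Mfn1 and Tfam each held the ETS motif, 44 and 47 bases before the start site of the window. The Tfam window lies wholly inside the span given for the gene (71225468 to 71238328), so its start site is not the outermost one. Of all 32851 promoter windows, 7.808% held the AP-1 motif, 4.603% the NRF1 motif, 3.887% the ETS motif, 1.79% the cyclic AMP response element and 1.282% the ERR motif. A match is a run of letters and not a binding site, and the absence of one says only that these letters are not in the window.

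The libraries differed in blood and in neighbouring tissue. Haemoglobin made up 69.4% and 69.2% of all FPKM in TPA, 40.8% and 11.2% in T-5224, 5.4% in coQ10, 68.9% and 74.1% in BAPN and 1.25% and 1.03% in normal. All 10 smooth muscle markers were listed in every library, with sums of 2728 and 3538 FPKM in TPA, 13284 and 3764 in T-5224, 10720 in coQ10, 2127 and 783 in BAPN and 6981 and 19081 in normal. Normal replicate 1, both TPA libraries and T-5224 replicate 2 stood apart by airway epithelium markers (4986 to 18588 FPKM against 20.7 to 39.6 in the other 5 libraries) and by cardiac muscle markers (2382 to 12684 against 47.3 to 257). Transcript length was rank-correlated with each library's deviation from the gene means, and the correlation ran from -0.373 in T-5224 replicate 2 to 0.401 in normal replicate 2. The 7 neutrophil markers summed to 768 and 255 FPKM in TPA, 139 and 391 in T-5224, 102 in coQ10, 1899 and 1075 in BAPN and 33.4 and 28.3 in normal, with Ly6g at 0 in all but BAPN replicate 1 and TPA replicate 1. The 8 white adipocyte markers summed to 4404 and 5874 FPKM in TPA, 1283 and 20205 in T-5224, 7703 in coQ10, 4600 and 3284 in BAPN and 16522 and 4443 in normal, with Lep at 0 in T-5224 replicate 2. Y-linked genes summed to 0 FPKM in normal replicate 1 and to 30.8 to 76.7 in the other 8 libraries, so normal replicate 1 stood apart from its own replicate in this too. The part of these differences in the members' values was not tested. Depth is not known from FPKM. In bulk tissue, fewer cells of a type and less RNA per cell cannot be told apart.

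FPKM is scaled by transcript length, so levels can be set beside each other. Mfn2 was the most abundant member with a mean of 37.0 FPKM over the 9 libraries, above 83.5% of the tested genes, and Ppargc1a the least abundant with 1.48 FPKM, above 5.6%. The range from the lowest to the highest library was 2.42-fold for Opa1, the narrowest, and 11.9-fold for Ppargc1a, the widest. On the scale of log2 of FPKM plus 1 the members spanned 1.17 (Opa1) to 2.25 (Mfn2), against a median of 1.72 over all tested genes. Normal replicate 1 was the highest library for 5 members (Ppargc1a, Esrra, Mfn2, Opa1 and Dnm1l), and a BAPN library the lowest for 6 (Ppargc1a, Ppargc1b, Nrf1, Esrra, Tfam and Mfn2).

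**Figure D1:**
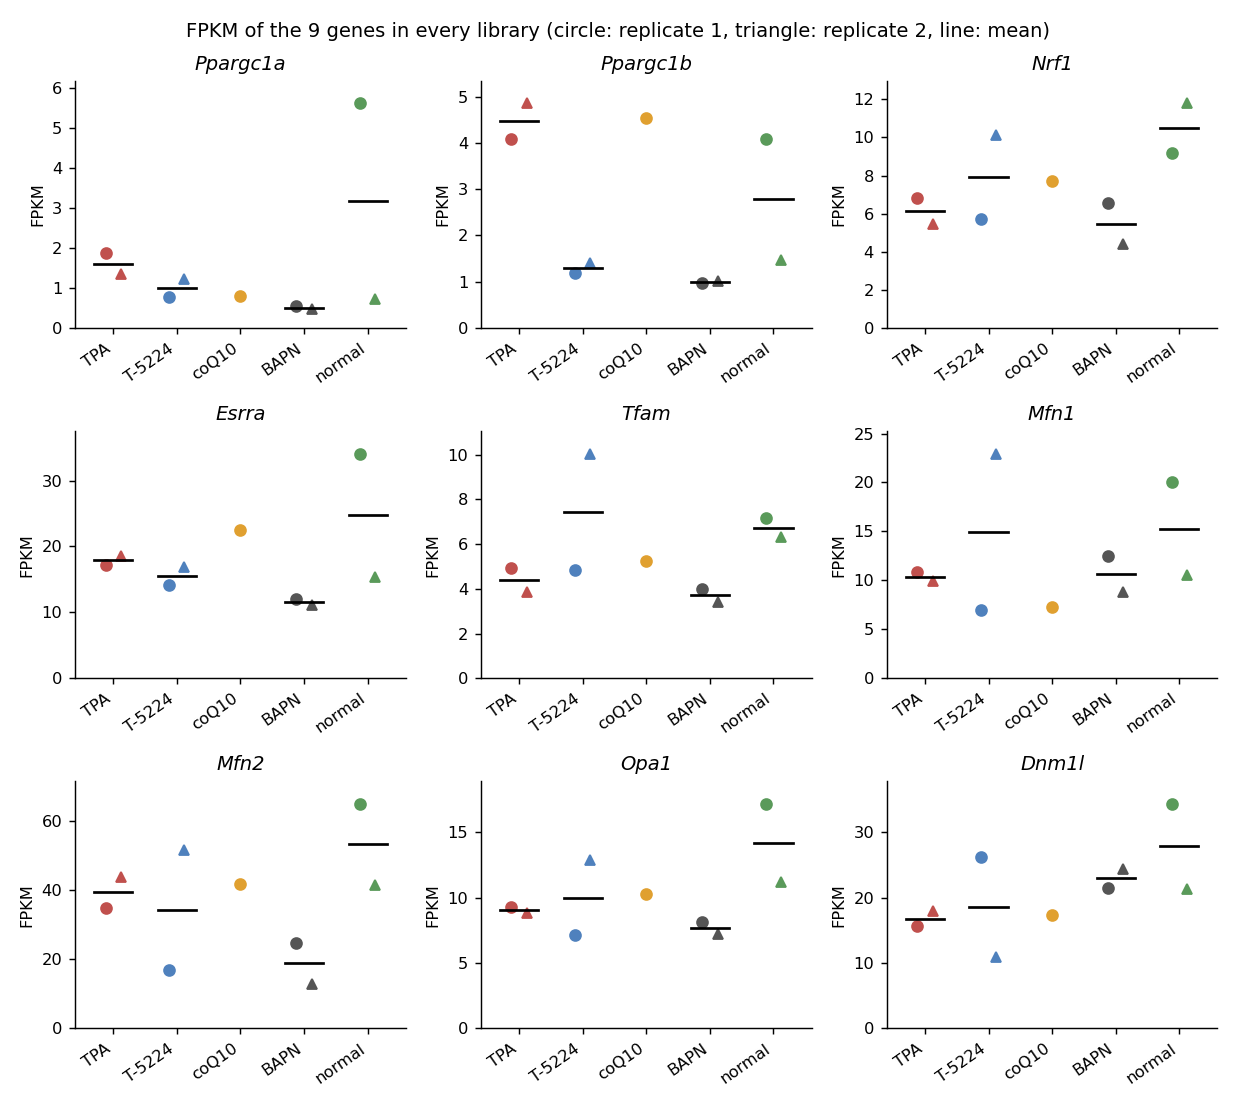
FPKM (vertical axis, linear, from 0) of each of the 9 genes in the TPA, T-5224, coQ10, BAPN and normal libraries, with circles for replicate 1, triangles for replicate 2 and a line at the group mean. Ppargc1b splits into 4 libraries at 4.08 to 4.85 and 5 libraries at 0.97 to 1.48, while the 2 T-5224 libraries lie far apart for Mfn1, Mfn2 and Dnm1l.

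The 2 PGC-1 coactivators had different patterns. Ppargc1a, the coactivator best known from cold, fasting and exercise (chromosome 5 from 51454249 to 52115853, GRCm38), had 1.87 and 1.34 FPKM in TPA, 0.77 and 1.22 in T-5224, 0.80 in coQ10, 0.54 and 0.47 in BAPN and 5.61 and 0.72 in normal. The normal libraries enclosed all but the BAPN libraries, which were the lowest of the 9. By group mean the order was normal, TPA, T-5224, coQ10 and BAPN, with normal overlapping TPA and T-5224 overlapping coQ10. Cardiac muscle markers, all 10 of which were listed in the 4 libraries that carried them, summed to 4908 and 2592 FPKM in TPA, 47.8 and 2382 in T-5224, 65.2 in coQ10, 257 and 98.8 in BAPN and 12684 and 47.3 in normal. The 4 libraries with the largest cardiac sums were the 4 with the highest Ppargc1a, and their part in the result was not tested. In the other 5 libraries, of which T-5224 replicate 1, normal replicate 2 and BAPN replicate 1 listed at least 1 cardiac marker at 0, Ppargc1a had 0.47 to 0.80 FPKM.

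Ppargc1b, which drives oxidative metabolism in the basal state (chromosome 18 from 61291445 to 61400756), had 4.09 and 4.85 FPKM in TPA, 1.20 and 1.40 in T-5224, 4.54 in coQ10, 0.97 and 1.01 in BAPN and 4.08 and 1.48 in normal. Both TPA libraries, the coQ10 library and normal replicate 1 were high, the other 5 were low, and no library lay between. The order of group means was coQ10, TPA, normal, T-5224 and BAPN, and of these neighbours only coQ10 and TPA overlapped. The 6 brown adipocyte markers summed to 670 and 721 FPKM in TPA, 115 and 1120 in T-5224, 1491 in coQ10, 242 and 85.3 in BAPN and 1141 and 156 in normal. T-5224 replicate 2 had low Ppargc1b at one of the 3 largest brown adipocyte sums. Elovl3 was at 0 in T-5224 replicate 1, both BAPN libraries and normal replicate 2, all of which had low Ppargc1b. The part of brown fat in the Ppargc1b levels was not tested.

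**Figure D2:**
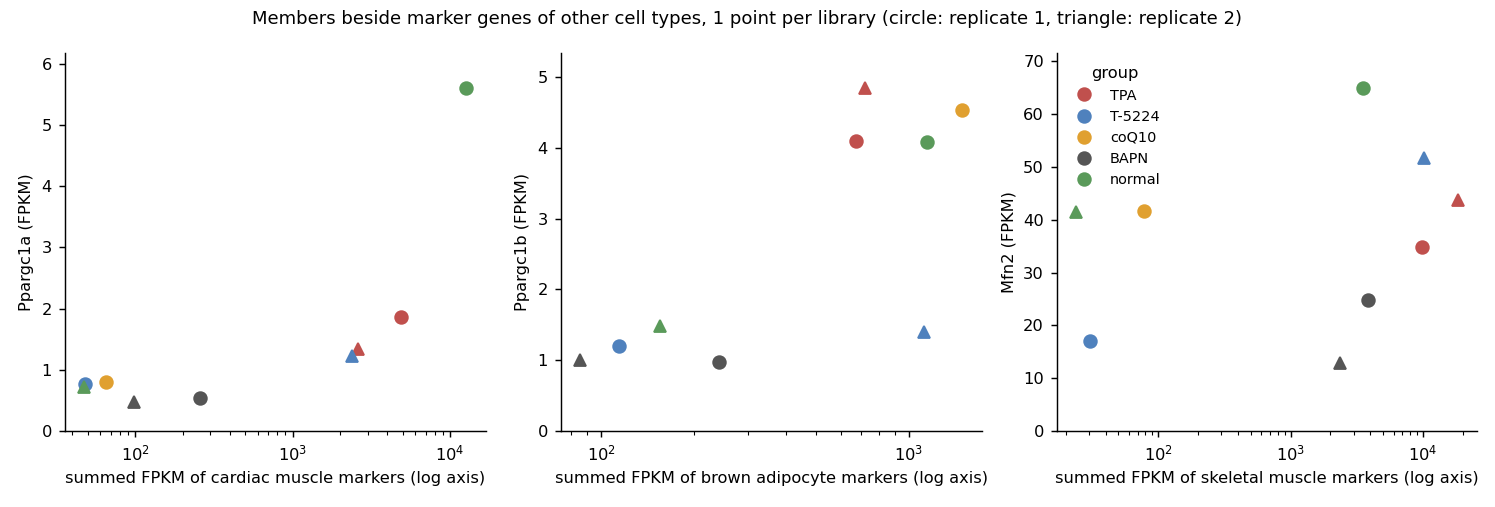
FPKM of Ppargc1a, Ppargc1b and Mfn2 (vertical axes, linear) against the summed FPKM of cardiac muscle, brown adipocyte and skeletal muscle markers (horizontal axes, log scale), 1 point per library, with circles for replicate 1 and triangles for replicate 2. Normal replicate 1 is at the top right for Ppargc1a, at 5.61 FPKM beside a cardiac sum of 12684, and T-5224 replicate 2 has 1.40 FPKM of Ppargc1b beside a brown adipocyte sum of 1120.

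Of the nuclear factors, Nrf1 (chromosome 6 from 30047985 to 30153458), which activates nuclear genes for respiratory chain subunits, had 6.81 and 5.44 FPKM in TPA, 5.72 and 10.14 in T-5224, 7.70 in coQ10, 6.56 and 4.39 in BAPN and 9.17 and 11.78 in normal. The normal libraries and T-5224 replicate 2 were the highest, and the TPA and BAPN libraries overlapped. Esrra (chromosome 19 from 6910977 to 6922048), the orphan receptor through which PGC-1 proteins reach many oxidative genes, had 17.23 and 18.59 FPKM in TPA, 14.21 and 16.90 in T-5224, 22.49 in coQ10, 12.03 and 11.13 in BAPN and 34.09 and 15.38 in normal. The BAPN libraries were again the lowest of the 9, and normal replicate 1 stood far above normal replicate 2. Tfam (chromosome 10 from 71225468 to 71238328), the packaging protein of mitochondrial DNA, had 4.92 and 3.88 FPKM in TPA, 4.83 and 10.05 in T-5224, 5.26 in coQ10, 3.98 and 3.43 in BAPN and 7.15 and 6.33 in normal. T-5224 replicate 2 exceeded the normal libraries while T-5224 replicate 1 lay among the TPA libraries, and TPA and BAPN overlapped.

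Of the outer membrane fusion proteins, Mfn1 (chromosome 3 from 32529443 to 32579225) had 10.81 and 9.91 FPKM in TPA, 6.96 and 22.95 in T-5224, 7.31 in coQ10, 12.53 and 8.85 in BAPN and 20.04 and 10.55 in normal. T-5224 replicates 1 and 2 were the lowest and the highest of the 9 libraries, so the T-5224 range enclosed every other group. Mfn2 (chromosome 4 from 147873586 to 147904909), which also tethers mitochondria to the endoplasmic reticulum, had 34.83 and 43.84 FPKM in TPA, 16.99 and 51.62 in T-5224, 41.70 in coQ10, 24.81 and 12.89 in BAPN and 65.02 and 41.45 in normal. Both BAPN libraries and T-5224 replicate 1 were low and the other 6 libraries high. The 12 skeletal muscle markers, of which Myh2 was at 0 in T-5224 replicate 1, summed to 9894 and 18507 FPKM in TPA, 30.7 and 10248 in T-5224, 77.8 in coQ10, 3873 and 2368 in BAPN and 3547 and 23.8 in normal. The coQ10 library and normal replicate 2 had high Mfn2 at low sums, and the part of skeletal muscle in the Mfn2 levels was not tested. In the order normal, coQ10, TPA, T-5224 and BAPN, every neighbouring pair of Mfn2 groups overlapped.

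The inner membrane GTPase Opa1 (chromosome 16 from 29579281 to 29663127), whose promoter held the AP-1 and NRF1 letters, had 9.29 and 8.84 FPKM in TPA, 7.11 and 12.91 in T-5224, 10.32 in coQ10, 8.16 and 7.22 in BAPN and 17.19 and 11.23 in normal. The T-5224 range again enclosed the BAPN, TPA and coQ10 values. Dnm1l (chromosome 16 from 16312228 to 16359038), the fission GTPase, had 15.66 and 17.90 FPKM in TPA, 26.20 and 10.91 in T-5224, 17.28 in coQ10, 21.55 and 24.37 in BAPN and 34.38 and 21.31 in normal. It ran against the fusion genes in the T-5224 group, where replicate 2 was its lowest library and the highest for Mfn1. BAPN was the second group of Dnm1l by mean, after normal, and all neighbouring groups in its order overlapped.

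**Figure D3:**
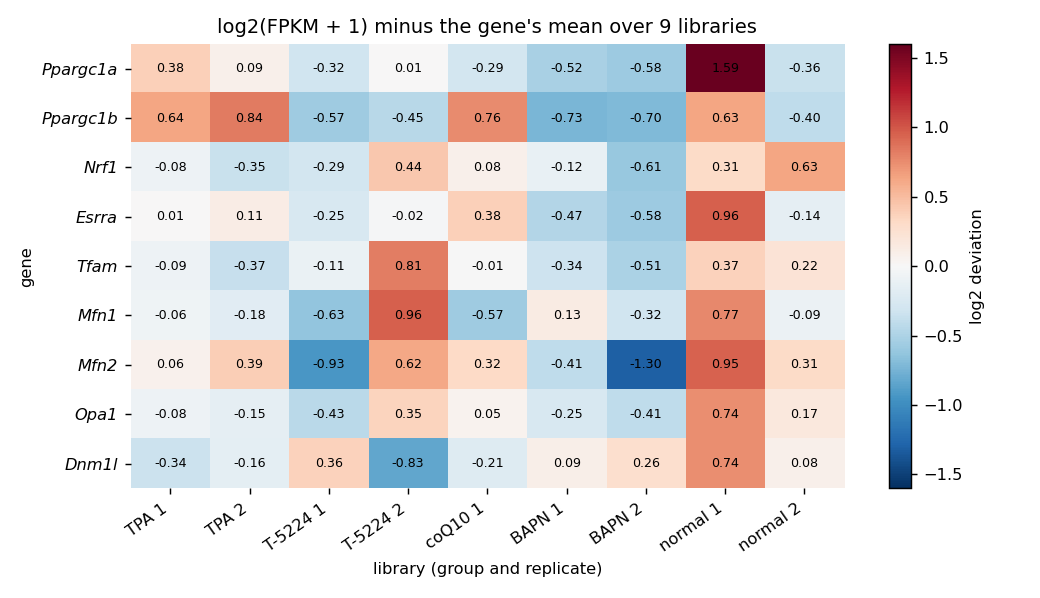
Deviation of log2 of FPKM plus 1 from each gene's mean over the 9 libraries, as colour and number, with the 9 genes in rows and the libraries in columns (TPA, T-5224, coQ10, BAPN, normal). Normal replicate 1 is above the mean for all 9 genes (0.31 to 1.59), BAPN replicate 2 is below it for all but Dnm1l (0.26), and T-5224 replicate 2 is above it for Mfn1 (0.96) and below it for Dnm1l (-0.83).

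BAPN against normal compared the dissection model with untreated aorta. No member passed the test (limma on log2 of FPKM plus 1, Benjamini-Hochberg adjustment over the 12997 tested genes), where 3.26% of all genes passed, and 2 members had an unadjusted p under 0.05, where 32.4% of all genes did. Mfn2 averaged 18.9 ± 8.43 FPKM in BAPN and 53.2 ± 16.7 FPKM in normal (SD, n = 2 each), a difference of -1.48 log2 (SE 0.575, 95% interval -2.85 to -0.11, limma adjusted p = 0.132). Esrra averaged 11.6 ± 0.636 FPKM in BAPN and 24.7 ± 13.2 FPKM in normal, a difference of -0.93 (SE 0.388, interval -1.86 to -0.01, limma adjusted p = 0.152). These are the 2 with an unadjusted p under 0.05.

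The widest interval in this comparison was that of Ppargc1a, at -1.16 (-2.70 to 0.37, limma adjusted p = 0.251). Nrf1 differed by -0.84, Ppargc1b by -0.83, Opa1 by -0.78 and Tfam by -0.72, with limma adjusted p of 0.163, 0.212, 0.181 and 0.224. The libraries of these 7 genes did not overlap between the groups, all lower in BAPN, as for 51.1% of all tested genes. Mfn1 at -0.43 and Dnm1l at -0.23 overlapped. All 9 differences were below 0 as deposited, as were 72.5% of all genes, but Mfn1 and Dnm1l were above 0 after median-of-ratios scaling, quantile normalization or removal of the length trend, and Dnm1l also without normal replicate 1. The median difference of all tested genes was -0.51 as deposited and -0.01 once scaled by median-of-ratios, and the members' median was -0.83, which is -0.32 relative to all genes. Relative to all genes Mfn2 stood at -0.97, Ppargc1a at -0.65, Esrra at -0.42 and Dnm1l at 0.28, and the share of genes with a lower difference was 12.1% for Mfn2.

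Median-of-ratios scaling gave Mfn2 -0.92 (limma adjusted p = 0.384), Ppargc1a -0.84 (0.409) and Esrra -0.38 (0.545). Haemoglobin held 68.9% and 74.1% of the FPKM sum in BAPN against 1.25% and 1.03% in normal, and with haemoglobin left out of the sum Mfn2 differed by -1.36 (0.149). The length trend was -0.188 and -0.07 in BAPN against 0.275 and 0.401 in normal. With it removed Mfn2 differed by -0.91 (limma adjusted p = 0.428), Esrra by -0.65 (0.275) and Ppargc1a by -0.40 (0.743). In that fit Ppargc1b differed by -0.35, Nrf1 by -0.30, Tfam by -0.17 and Opa1 by -0.03. After rescaling to TPM, where the median of all genes was -1.92 and 9481 genes fell, all 9 members passed as lower, where 74.1% of all genes passed. Mfn2 passed without T-5224 replicate 1 (limma adjusted p = 0.0435) or without T-5224 replicate 2 (0.0425), libraries outside the comparison that share its estimate of spread, where 28.0% and 28.2% of all genes passed. Without normal replicate 1, Mfn2 differed by -1.16 (0.36), Esrra by -0.38 (0.514) and Ppargc1a by -0.19 (0.814), and the members' median was -0.07 relative to all genes.

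TPA against BAPN compared BAPN with and without the AP-1 activator. Airway epithelium sums were 15299 and 6893 FPKM in TPA against 23.3 and 20.7 in BAPN. Skeletal muscle sums were 9894 and 18507 against 3873 and 2368, and brown adipocyte sums 670 and 721 against 242 and 85.3. Neutrophil sums were lower, at 768 and 255 against 1899 and 1075. The part of these tissues in the differences was not tested. Ppargc1b averaged 4.47 ± 0.537 FPKM in TPA and 0.990 ± 0.0283 FPKM in BAPN (SD, n = 2 each), a difference of 1.46 log2 (SE 0.417, 95% interval 0.46 to 2.45) that is 2.74-fold on the scale of FPKM plus 1 and larger than that of 94.7% of tested genes. It did not pass (limma adjusted p = 0.414), and none of the 9 members passed in this comparison, where 0.0385% of all genes did. Ppargc1b was the single member with an unadjusted p under 0.05, against 10.2% of all genes. Its difference was 1.27 to 1.62 under the 5 other scalings, removal of the length trend included. It passed with only the 4 libraries of these groups in the fit (limma adjusted p = 0.0314) and with normal replicate 1 and T-5224 replicate 2 left out together (0.0351), where 7.48% and 7.87% of all genes passed.

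The libraries of 5 members did not overlap and were higher with TPA (Ppargc1a, Ppargc1b, Esrra, Mfn2 and Opa1), as for 41.4% of all genes, and those of Dnm1l did not overlap and were lower, as for 21.2%. Mfn2 averaged 39.3 ± 6.37 FPKM in TPA and 18.9 ± 8.43 FPKM in BAPN, a difference of 1.08 (interval -0.29 to 2.45, limma adjusted p = 0.537). Esrra averaged 17.9 ± 0.962 FPKM in TPA and 11.6 ± 0.636 FPKM in BAPN, a difference of 0.59 (interval -0.34 to 1.51, 0.603). Ppargc1a differed by 0.78 (-0.75 to 2.32, 0.671) beside cardiac sums of 4908 and 2592 FPKM in TPA against 257 and 98.8 in BAPN. Dnm1l averaged 16.8 ± 1.58 FPKM in TPA and 23.0 ± 1.99 FPKM in BAPN, a difference of -0.43 (-1.49 to 0.63, 0.732). Over the 20 alternative fits it ran from -0.64 to -0.21. Several of these fits, such as leaving out a library of another group, cannot alter the difference. Opa1 at 0.21, Tfam at 0.19, Nrf1 at 0.15 and Mfn1 at -0.02 each changed sign in at least 1 alternative fit. As deposited, 7 members were above 0 and 2 below, as were 61.8% and 38.1% of all genes. The members' median was 0.21 and that of all genes 0.18.

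T-5224 against BAPN compared BAPN with and without the AP-1 inhibitor. No member passed (limma, 0.0308% of all genes passed), and none had an unadjusted p under 0.05, where 18.3% of all genes did. Tfam averaged 7.44 ± 3.69 FPKM in T-5224 and 3.71 ± 0.389 FPKM in BAPN (SD, n = 2 each), a difference of 0.77 log2 (SE 0.37, 95% interval -0.11 to 1.65, limma adjusted p = 0.315). It was the largest of the 9 differences as deposited. Mfn2 differed by 0.70 (-0.67 to 2.07), Nrf1 by 0.44, Ppargc1a by 0.40, Esrra by 0.39, Opa1 by 0.29, Mfn1 by 0.26 and Ppargc1b by 0.21. Dnm1l was the one member below 0, at -0.41 (-1.47 to 0.65), where 30.3% of all genes were below 0 and 69.4% above, and was at 0.19 without T-5224 replicate 2. The libraries of Ppargc1a, Ppargc1b, Esrra and Tfam did not overlap and were higher with T-5224, as for 34.2% of all genes. The members' median of 0.39 stood beside 0.35 for all genes.

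The T-5224 pair was the least alike of the 4 pairs, with a correlation across all genes of 0.794 against 0.852 to 0.967 for the other pairs. Without T-5224 replicate 2, which had a skeletal muscle sum of 10248 FPKM against 30.7 in replicate 1, Mfn2 differed from BAPN by -0.07, Mfn1 by -0.54 and Opa1 by -0.10. The members' median relative to all genes was 0.04 with both T-5224 libraries, 0.43 without replicate 1 and -0.19 without replicate 2. After rescaling to TPM, Tfam passed as higher (1.33, limma adjusted p = 0.0374), where 24.4% of all genes passed. When haemoglobin was left out of the sum, 6 of the 9 members were below 0, with Dnm1l at -0.94, Mfn1 at -0.29, Opa1 at -0.23, Esrra at -0.15, Ppargc1b at -0.09 and Nrf1 at -0.07, and the median of all genes was -0.12.

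CoQ10 against BAPN set the single coQ10 library beside the BAPN pair, and the test assumed that it varies like the other groups. Ppargc1b had 4.54 FPKM in coQ10 and averaged 0.990 ± 0.0283 FPKM in BAPN (SD, n = 2), a difference of 1.48 log2 (SE 0.511, 95% interval 0.26 to 2.69) that did not pass (limma adjusted p = 0.209). No member passed, where 0.0154% of all genes did, and Ppargc1b was the single member with an unadjusted p under 0.05, against 19.8% of all genes. Mfn2 had 41.7 FPKM in coQ10 against 18.9 ± 8.43 in BAPN (1.17, -0.50 to 2.85), and Esrra 22.5 FPKM in coQ10 against 11.6 ± 0.636 in BAPN (0.90, -0.23 to 2.03). The coQ10 value lay above both BAPN libraries for 7 members, as for 59.6% of all genes, and below both for Mfn1 and Dnm1l, as for 24.1%. Mfn1 differed by -0.47 and Dnm1l by -0.39, and both were above 0 after rescaling to TPM (0.85 and 1.02). Of the 7 higher members, Opa1 was below 0 after median-of-ratios scaling, quantile normalization or removal of the length trend (-0.08 to -0.02), and Ppargc1a was at -0.22 with the length trend removed. As deposited, 7 members were above 0 and 2 below, as were 68.4% and 31.1% of all genes. The members' median was 0.41 and that of all genes 0.39. Haemoglobin held 5.4% of the sum in coQ10 against 68.9% and 74.1% in BAPN, and the brown adipocyte sum was 1491 FPKM in coQ10 against 242 and 85.3 in BAPN. After rescaling to TPM, 6 members passed as higher, where 56.4% of all genes passed, 7206 of them higher. With normal replicate 1 and T-5224 replicate 2 left out together, Ppargc1b (0.0274) and Esrra (0.0481) passed, where 22.8% of all genes did.

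TPA against T-5224 set the activator beside the inhibitor, both with BAPN. Ppargc1b averaged 4.47 ± 0.537 FPKM in TPA and 1.30 ± 0.141 FPKM in T-5224 (SD, n = 2 each), a difference of 1.25 log2 (SE 0.417, 95% interval 0.26 to 2.24) that did not pass (limma adjusted p = 0.444). No member passed, where 0.0154% of all genes did, and Ppargc1b was the single member with an unadjusted p under 0.05, against 10.9% of all genes. Over the 20 alternative fits, several of which cannot alter the difference, it ran from 0.82 to 1.71. The libraries of Ppargc1a, Ppargc1b and Esrra did not overlap and were higher with TPA, as for 16.5% of all genes, and no member had libraries that did not overlap and were lower, as for 28.0%. Ppargc1a differed by 0.39 (-1.14 to 1.92) and Esrra by 0.20 (-0.73 to 1.12). Tfam differed by -0.58 (-1.46 to 0.30), Nrf1 by -0.29, Mfn1 by -0.28, Opa1 by -0.08, Dnm1l by -0.02 and Mfn2 by 0.38. As deposited, 4 members were above 0 and 5 below, as were 44.9% and 55.1% of all genes, and each member but Ppargc1b changed sign in at least 1 alternative fit. The members' median relative to all genes was 0.06, against -0.38 without T-5224 replicate 1 and 0.50 without T-5224 replicate 2. TPA, T-5224 and coQ10 were each set against the same 2 BAPN libraries, and TPA against T-5224 shares libraries with them, so these differences are not independent.

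**Figure D4:**
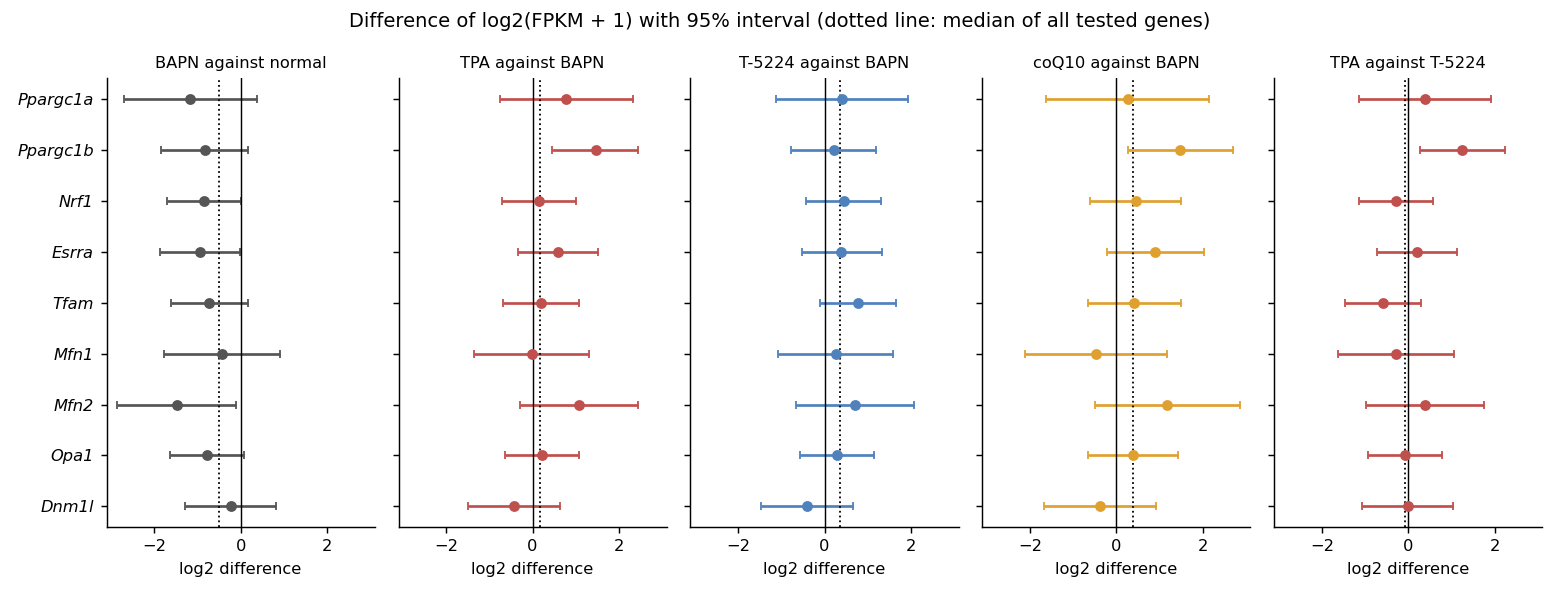
Differences of log2 of FPKM plus 1 (points) with 95% intervals (bars) for the 9 genes in the 5 comparisons, the group named before "against" minus the other, with a dotted line at the median of all tested genes. Intervals leave out 0 for Mfn2 and Esrra in BAPN against normal and for Ppargc1b in TPA against BAPN, coQ10 against BAPN and TPA against T-5224, and no member passed after adjustment over all genes.

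Ratios within a library do not depend on a factor that scales the whole library, and 4 ratios were chosen after the values were seen. They can still carry the length trend where transcripts differ in length. The longest transcript has 6230 bases for Opa1 and 3966 for Dnm1l. Mfn2 over Mfn1 was 3.22 and 4.42 in TPA, 2.44 and 2.25 in T-5224, 5.70 in coQ10, 1.98 and 1.46 in BAPN and 3.24 and 3.93 in normal. Mfn2 exceeded Mfn1 in every library, and both BAPN libraries had the lowest ratios. Mfn2 over Dnm1l was 2.22 and 2.45 in TPA, 0.649 and 4.73 in T-5224, 2.41 in coQ10, 1.15 and 0.529 in BAPN and 1.89 and 1.95 in normal. Opa1 over Dnm1l was 0.593 and 0.494 in TPA, 0.271 and 1.18 in T-5224, 0.597 in coQ10, 0.379 and 0.296 in BAPN and 0.500 and 0.527 in normal. By both ratios to Dnm1l, the BAPN libraries lay below the TPA, coQ10 and normal libraries, and T-5224 held both the extremes of the Opa1 ratio. Ppargc1b over Ppargc1a was 2.19 and 3.62 in TPA, 1.56 and 1.15 in T-5224, 5.68 in coQ10, 1.80 and 2.15 in BAPN and 0.727 and 2.06 in normal. Normal replicate 1 was the one library with more Ppargc1a than Ppargc1b. These ratios show unequal change between the genes of a pair and not which of the pair changed.

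**Figure D5:**
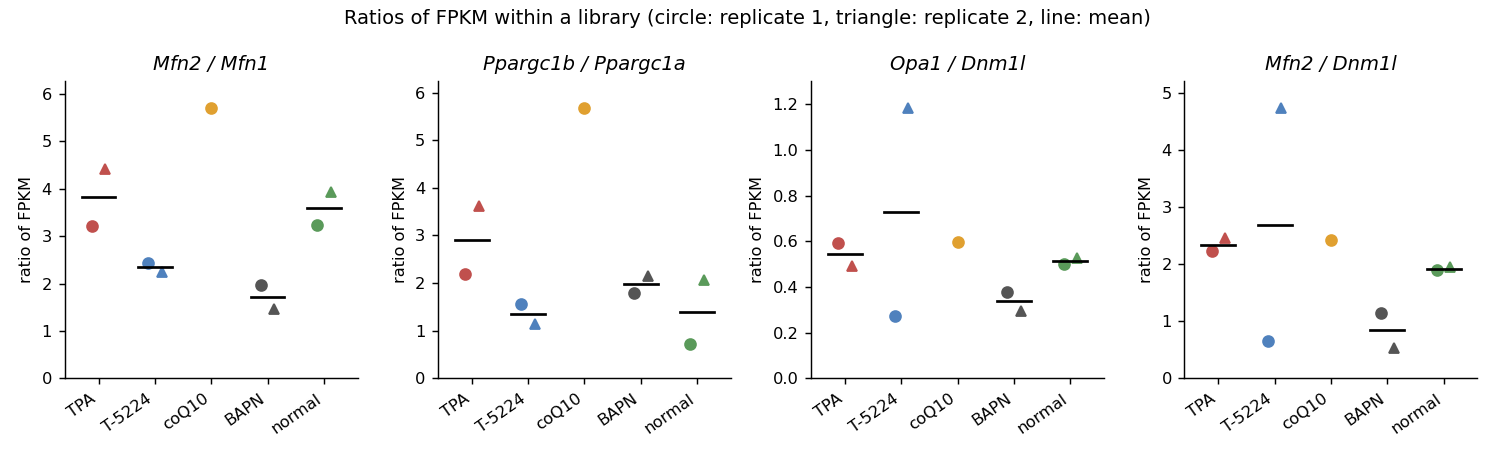
Ratios of FPKM between 2 members of the same library (vertical axes, linear, from 0) in the TPA, T-5224, coQ10, BAPN and normal groups, with circles for replicate 1, triangles for replicate 2 and a line at the group mean. Mfn2 over Mfn1 is lowest in the BAPN libraries (1.98 and 1.46), and the T-5224 libraries lie far apart for both ratios to Dnm1l.

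Over the 9 libraries the members fell into patterns that are described here without a test, since the libraries share treatments and scaling. Nrf1 and Tfam moved together (Pearson r = 0.84, Spearman rho = 0.93, n = 9 libraries, and r = 0.91 without the 2 libraries farthest from the median of Nrf1). Mfn2 and Opa1 had r = 0.88 and rho = 0.87 (0.88 without the 2 farthest of Mfn2). Esrra and Ppargc1a had r = 0.86 and rho = 0.87, which was 0.44 without normal replicate 1 and BAPN replicate 2 and so rests on those libraries. Esrra and Ppargc1b had r = 0.77 and rho = 0.85 (0.84 without the same 2 libraries). Dnm1l had r between -0.33 and 0.31 with every other member, which also rests on 2 libraries. Without T-5224 replicate 2 and normal replicate 1, it had r of -0.88 with Ppargc1b, -0.79 with Mfn2, -0.77 with Ppargc1a, -0.75 with Esrra and -0.63 with Opa1, and -0.28 to -0.21 with Nrf1, Tfam and Mfn1. The tested gene most like each member by r was Cfap53 for Ppargc1a (0.989), Flcn for Ppargc1b (0.949), Nupl1 for Nrf1 (0.963), Afg3l2 for Esrra (0.992), Cyb5r4 for Tfam (0.967), Sccpdh for Mfn1 (0.97), Fitm2 for Mfn2 (0.984), Sdpr for Opa1 (0.981) and Dzip3 for Dnm1l (0.941). Each is the highest r over all tested genes in 9 libraries, so high values are to be expected. Dzip3, at 0.20 to 2.00 FPKM, had rho = 0.78 and r = 0.74 without T-5224 replicate 2 and normal replicate 1. Without the 2 libraries farthest for each member, r of the others was 0.91 to 0.98.

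The next 2 genes were Tbx5 and Fam161a for Ppargc1a, Svep1 and Rhbdd3 for Ppargc1b, Aaed1 and Vps4a for Nrf1, Acsl1 and Acad11 for Esrra, Eif2b5 and Xbp1 for Tfam, Eps15 and Abcb1b for Mfn1, Mocos and Gbe1 for Mfn2, Ubqln1 and Pank1 for Opa1 and Cul2 and Dmtf1 for Dnm1l. Among these, Flcn encodes folliculin, which had 19.78 and 22.08 FPKM in TPA, 11.89 and 7.91 in T-5224, 25.11 in coQ10, 5.73 and 7.03 in BAPN and 20.42 and 10.79 in normal. As with Ppargc1b, the TPA libraries, the coQ10 library and normal replicate 1 were its highest. Afg3l2, a subunit of the protease of the mitochondrial inner membrane, had 21.95 and 23.67 FPKM in TPA, 19.06 and 21.96 in T-5224, 26.81 in coQ10, 14.62 and 15.36 in BAPN and 43.90 and 19.92 in normal. Normal replicate 1 was its highest and the BAPN libraries its lowest, as for Esrra. Cfap53, a protein of motile cilia, was at 0 in both BAPN libraries and normal replicate 2 and had 6.48 FPKM in normal replicate 1, the library with the largest airway epithelium sum (18588 FPKM). Tbx5, a factor of heart development, was the gene next most like Ppargc1a.

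Genes around the members were taken from 9 lists of coactivators, nuclear factors, upstream kinases, mitochondrial DNA maintenance, fusion, fission, mitophagy, PGC-1 targets and protein import, 122 genes of which 118 were tested. In BAPN against normal, 3 of the 118 fell and none rose, where 2.36% of all genes fell and 0.9% rose, and none passed in the other 4 comparisons (limma). Akap1 (chromosome 11 from 88830792 to 88864596), which anchors protein kinase A to the outer membrane, where that kinase phosphorylates DRP1, had 12.47 and 14.13 FPKM in TPA, 9.85 and 7.47 in T-5224, 27.96 in coQ10, 3.85 and 3.52 in BAPN and 39.77 and 17.75 in normal. It fell by 2.56 log2 in BAPN against normal (SE 0.402, limma adjusted p = 0.0458). Mief1 (chromosome 15 from 80233964 to 80253372), which recruits DRP1 to mitochondria, had 2.57 and 2.30 FPKM in BAPN against 7.62 and 8.48 in normal and fell by 1.40 (SE 0.271, 0.049). Rxra (chromosome 2 from 27676445 to 27763319), the partner of PPAR receptors, had 9.80 and 6.25 FPKM in BAPN against 29.67 and 27.81 in normal and fell by 1.75 (SE 0.318, 0.0475). Both BAPN libraries were below both normal libraries for these 3 genes.

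These calls were near the threshold. All 3 were lost with haemoglobin left out of the sum (limma adjusted p of 0.0831 to 0.137), with the length trend removed (0.0527 to 0.232), with only the libraries of the compared groups (0.0647), with the replicate block (0.0934 to 0.095) and with no filter on low values (0.0626 to 0.0691). Akap1 was lost without normal replicate 1 (limma adjusted p = 0.0769), without either BAPN library (0.182 and 0.246) and without either TPA library (0.13 and 0.132). Mief1 and Rxra were lost without those libraries and without normal replicate 2 (0.123 and 0.104), with adjusted p of up to 0.246. After median-of-ratios scaling Akap1 passed (-2.04, limma adjusted p = 0.0411), and Mief1 (-0.93, 0.144) and Rxra (-1.20, 0.117) did not. In each of these fits a smaller share of all genes passed in BAPN against normal than the 3.26% as deposited. It was 0.231% with haemoglobin left out, 0.798% with the length trend removed and 0.285% with the compared groups alone. It was 0.0616% with the replicate block, 0.309% with no filter and 1.74% by median-of-ratios. In coQ10 against BAPN, Akap1 differed by 2.63 (0.185), Rxra by 1.79 (0.185) and Mief1 by 1.23 (0.19), none of which passed.

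The lists differed from one another in where their medians stood. The 18 PGC-1 targets had a median of -1.05 in BAPN against normal, with 18 of 18 below 0, and 0.99 in coQ10 against BAPN, with 18 of 18 above 0, beside -0.51 and 0.39 for all genes, of which 72.5% were below 0 and 68.4% above 0. Their median was 0.63 in TPA against BAPN (17 of 18 above 0), 0.55 in T-5224 against BAPN (16 of 18) and 0.16 in TPA against T-5224 (15 of 18), beside 0.18, 0.35 and -0.08 for all genes. Of all genes, 61.8%, 69.4% and 44.9% were above 0 in these comparisons. No PGC-1 target passed. Hadha, of the trifunctional protein of fatty acid oxidation, had 34.13 and 22.16 FPKM in BAPN against 133.09 and 45.74 in normal (-1.47, limma adjusted p = 0.118), and the complex I subunit Ndufs1 16.81 and 16.87 in BAPN against 63.57 and 23.38 in normal (-1.15, 0.138). Cpt1b, the muscle isoform of the carnitine palmitoyltransferase, had 34.25 and 40.95 FPKM in TPA, 5.34 and 32.77 in T-5224, 59.92 in coQ10, 8.15 and 3.77 in BAPN and 95.77 and 11.41 in normal. It was high in the TPA and coQ10 libraries and highest in normal replicate 1, all high in Ppargc1b, but also high in T-5224 replicate 2, where Ppargc1b was low. These libraries had brown adipocyte sums of 670 to 1491 FPKM, against 85.3 to 242 in the others. The part of muscle and fat in the levels of the PGC-1 targets was not tested.

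The 9 coactivators and corepressors had a median of -1.15 in BAPN against normal, 0.75 in TPA against BAPN and 0.04 in T-5224 against BAPN. Their median was 0.64 in coQ10 against BAPN and 0.72 in TPA against T-5224. In the same order, the medians of all genes were -0.51, 0.18, 0.35, 0.39 and -0.08. The acetyltransferase gene Ep300 had 9.22 and 8.30 FPKM in TPA, 8.87 and 2.54 in T-5224, 6.02 in coQ10, 1.88 and 2.49 in BAPN and 13.28 and 14.11 in normal. Its BAPN libraries were the lowest of the 9, and its difference in BAPN against normal was -2.21 (limma adjusted p = 0.0541). Among 13 tested nuclear factors besides the members, the median was -1.05 in BAPN against normal, 0.51 in TPA against BAPN, 0.49 in T-5224 against BAPN, 0.81 in coQ10 against BAPN and -0.02 in TPA against T-5224. Mef2c, a muscle factor that PGC-1α coactivates, had 16.45 and 21.83 FPKM in TPA, 18.83 and 13.63 in T-5224, 16.88 in coQ10, 8.25 and 7.86 in BAPN and 15.68 and 20.15 in normal. The BAPN libraries were its 2 lowest, and no comparison of it passed.

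Of the 17 genes of mitochondrial DNA maintenance, none passed in any comparison. Their median was -0.78 in BAPN against normal, 0.29 in TPA against BAPN and 0.54 in T-5224 against BAPN. It was 0.54 in coQ10 against BAPN and -0.31 in TPA against T-5224. All genes had medians of -0.51, 0.18, 0.35, 0.39 and -0.08 in these comparisons. Top1mt, the mitochondrial topoisomerase, had 4.93 and 5.06 FPKM in TPA, 6.93 and 6.99 in T-5224, 7.04 in coQ10, 3.03 and 2.67 in BAPN and 7.84 and 7.93 in normal. Its replicates lay close together in every pair, the BAPN libraries were the lowest, and its difference in BAPN against normal was -1.21 (limma adjusted p = 0.0528). Of the 14 tested genes of fusion and inner membrane shape besides the members, 14 were below 0 in BAPN against normal (median -0.68), as were 72.5% of all genes, and 14 above 0 in T-5224 against BAPN (median 0.62), as were 69.4%, with none passing. Relative to all genes these medians were -0.17 and 0.27. Their medians in TPA against BAPN, coQ10 against BAPN and TPA against T-5224 were 0.21, 0.51 and -0.36. Spg7, the partner of Afg3l2 in the inner membrane protease, had 11.29 and 11.53 FPKM in BAPN against 26.42 and 25.62 in normal (-1.12, limma adjusted p = 0.0626). The 13 tested fission genes had medians of -0.90, 0.46, 0.38, 0.57 and -0.11 in BAPN against normal, TPA against BAPN, T-5224 against BAPN, coQ10 against BAPN and TPA against T-5224.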

How the data were processed

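Bulk RNA sequencing libraries of mouse aorta (9 in 5 groups) were described. Trizol was used for RNA and a TruSeq kit for the libraries, per the labels' protocols. Each library has its own table of FPKM by gene symbol, deposited by the authors with 2 decimals, and the genome build mm10 is named in the submitters' processing notes. Aligner, counter, annotation and strand setting were not given in the sources used here. A symbol absent from a library's table was set to 0. FPKM carry no counts, so depth is unknown. Relative depth, read from the spacing of low values with weak resolution, was 0.73 to 1.15 times that of BAPN replicate 2.

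The scale was log2 of FPKM plus 1, for symbols with a mean of at least 1 FPKM. All 9 libraries entered 1 fit in limma 3.58.1 (R 4.3.3) with 5 groups, 4 residual degrees of freedom and an intensity trend, and two-sided p-values were adjusted by Benjamini-Hochberg over all tested genes at a threshold of 0.05. The procedure was run on simulated data with the same independent spread in every gene and library. Those data hold no tissue, length or library effects, so the run does not show how the test performs on these libraries. Intervals are 95% and not adjusted. Coordinates and promoters came from RefSeq (GRCm38.p6), and transcript lengths from GENCODE release M 21, for 97.3% of tested genes. Tables were handled with python 3.11.15, pandas 2.3.3 and numpy 2.4.6 and drawn with matplotlib 3.10.9.

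The 9 members, the 9 gene lists, the marker lists for smooth, cardiac and skeletal muscle, brown and white fat, neutrophils and airway epithelium and the tests were chosen with earlier results of these data known. All members were named in every comparison. Of each list, the genes that passed were taken, or the 2 with the smallest p where none passed, and the text gives a selection of the latter. For likeness, the 3 genes with the highest r were named. Alternatives were another offset, no filter, 4 other scalings, removal of the length trend, no intensity trend, a fit of the compared groups alone, a replicate block and leaving out libraries.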

Additional observations from a re-analysis of the deposited data

How the results depend on the processing

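The number of members passing was 0 in each comparison as deposited. After rescaling to TPM it was 9 in BAPN against normal, 1 in T-5224 against BAPN and 6 in coQ10 against BAPN, where 74.1%, 24.4% and 56.4% of all genes passed. With only the libraries of the compared groups it was 1 in TPA against BAPN, where 7.48% of all genes passed. With normal replicate 1 and T-5224 replicate 2 left out together it was 1 in TPA against BAPN and 2 in coQ10 against BAPN, and TPA against T-5224 had a member median of 0.5 relative to all genes. That fit takes its spread from the BAPN and TPA pairs alone. Leaving out 1 library at a time, it was 0 to 1 in BAPN against normal, where Mfn2 passed without T-5224 replicate 1 or 2, and 0 in the other 4 comparisons. The members' median relative to all genes ran, over the same fits, from -0.41 to -0.07 in BAPN against normal, from -0.04 to 0.21 in TPA against BAPN, from -0.19 to 0.43 in T-5224 against BAPN, from -0.07 to 0.1 in coQ10 against BAPN and from -0.38 to 0.5 in TPA against T-5224. T-5224 replicate 1 or 2 set both ends of the last range. The cause was not tested. Over all genes, the count in BAPN against normal was 117 rising and 307 falling as deposited, 196 and 30 by median-of-ratios, 156 and 9481 after rescaling to TPM, 87 and 14 with the length trend removed, 259 and 66 after quantile normalization, 28 and 2 with haemoglobin left out of the sum, 56 and 96 with an offset of 0.1, 33 and 20 with no filter, 83 and 114 with no intensity trend, 34 and 3 with the compared groups alone and 1238 and 2794 with both libraries left out together. Leaving out 1 library at a time it ran from 0 and 0 without BAPN replicate 1 to 670 and 3000 without T-5224 replicate 2. In TPA against BAPN it was 3 and 2 as deposited, 702 and 270 with the compared groups alone and 744 and 279 with both left out, in T-5224 against BAPN 0 and 4 as deposited, 3045 and 123 after TPM and 1442 and 803 with both left out, in coQ10 against BAPN 0 and 2 as deposited, 7206 and 122 after TPM and 2214 and 753 with both left out, and in TPA against T-5224 2 and 0 as deposited, 222 and 444 without T-5224 replicate 1 and 416 and 168 with both left out.

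Replicate numbers did not pair the libraries, since the deviations of same-numbered libraries correlated at -0.437 to 0.176 between groups. The replicate block gave 7 rising and 1 falling gene in BAPN against normal. With it, 0 members passed in each of the 4 comparisons it could be fitted to, and the members' median relative to all genes was -0.32, 0.04, 0.04 and 0.06 in BAPN against normal, TPA against BAPN, T-5224 against BAPN and TPA against T-5224. No paired analysis was possible because coQ10 has 1 library with no number for coQ10 against BAPN. Depth is unknown, so values near 0, Ppargc1a among them, have an unknown counting error. With groups of 1 or 2 libraries, the intervals of members are up to 3.75 log2 wide, and differences within them were not detectable.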

Other observations

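Genes that remove mitochondria and genes that regulate the coactivators from outside are described here as values, with no explanation. Of the 14 mitophagy genes, none passed in any comparison (limma), and their median was -0.09 in BAPN against normal, 0.13 in TPA against BAPN, 0.19 in T-5224 against BAPN, 0.09 in coQ10 against BAPN and -0.38 in TPA against T-5224, beside -0.51, 0.18, 0.35, 0.39 and -0.08 for all genes. Bnip3l, a mitophagy receptor that also clears mitochondria from maturing red cells, had 135.56 and 98.33 FPKM in TPA, 88.65 and 90.42 in T-5224, 37.37 in coQ10, 90.52 and 106.61 in BAPN and 40.16 and 33.31 in normal. It differed by 1.40 in BAPN against normal (SE 0.3, limma adjusted p = 0.0532). The 3 libraries with the lowest Bnip3l were the 3 with the smallest haemoglobin shares (5.4%, 1.25% and 1.03%), and T-5224 replicate 2 had 90.42 FPKM at a share of 11.2%. Its part in the difference was not tested.

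Of the 11 upstream kinases and deacetylases, none passed, with medians of -0.89, 0.17, 0.48, 0.63 and -0.15 in BAPN against normal, TPA against BAPN, T-5224 against BAPN, coQ10 against BAPN and TPA against T-5224. The medians of all genes were -0.51, 0.18, 0.35, 0.39 and -0.08. Prkaa2, a catalytic subunit of the energy sensor AMPK, had 2.85 and 3.08 FPKM in TPA, 2.76 and 5.22 in T-5224, 2.54 in coQ10, 1.22 and 1.02 in BAPN and 5.31 and 4.53 in normal. The BAPN libraries were the lowest of the 9, and the difference in BAPN against normal was -1.48 (SE 0.353, limma adjusted p = 0.0588). The 9 genes of import and the outer membrane, none of which passed, had medians of -0.28, 0.02, 0.48, 0.07 and -0.30 in the same comparisons. As deposited, all 9 were above 0 in T-5224 against BAPN, as were 69.4% of all genes, and below 0 in TPA against T-5224, as were 55.1%, 2 comparisons that share the T-5224 libraries. Tomm22, a receptor of the import pore, had 41.74 and 36.74 FPKM in TPA against 62.80 and 90.08 in T-5224 (-0.92, limma adjusted p = 0.443).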
